A study of Mus musculus with 37 samples.

Results

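The core cardiac transcription factors described here are the genes Gata4, Gata5, Gata6, Nkx2-5, Mef2c, Hand1, Hand2, Myocd, Srf and Zfpm2. They are listed by symbol and make up 10 of the 25239 gene rows of the count table. All 10 of the 10 passed the filter on low counts, which left 15046 genes for testing.

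The RNA came from mouse hearts dissected at E10.5, mid-gestation, and read counts per gene were deposited for 37 bulk libraries. The fathers carried Stra8-iCre, a Cre transgene of the male germ line, and Nipbl Flox/+, and gave each embryo either a working Nipbl allele or the null Nipbl FIN allele. The mothers were Isl1 Cre/+, with a Cre recombinase placed in 1 Isl1 allele, which removes that allele's function. The labels put 10 libraries in the group Nipbl +/+; Isl1 +/+ (called wild-type here), 9 in Isl1 +/- (Isl1_het), 9 in Nipbl +/- (Nipbl_het) and 9 in Nipbl +/-; Isl1 +/- (double_het). All 4 groups came from such crosses. The Cre at Isl1 is present in Isl1_het and double_het hearts alone, and its presence cannot be told apart from the loss of the Isl1 allele. The titles do not say which working Nipbl allele an embryo received. Where it is Flox, any action of the Isl1 Cre on it in Isl1_het hearts cannot be told apart either. The labels do not say whether 1 heart or a pool gave each library, so the p-values below measure the spread between these libraries.

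The 10 genes encode the DNA-binding proteins and cofactors that switch on and maintain the cardiac muscle program. GATA factors, Nkx2-5, Mef2c and the Hand factors bind each other and the same enhancers, while Srf with its coactivator Myocd turns on sarcomere and smooth muscle genes and Zfpm2 (also known as FOG2) tempers the GATA factors. Nipbl loads cohesin onto chromosomes, and Isl1 is a LIM homeodomain factor of the second heart field, the progenitors that build the right ventricle and outflow tract.

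Total counts per library ran from 23.4M to 51.0M with a median of 36.2M. Nipbl itself, the targeted gene, averaged 60.0 ± 10.1 CPM (counts per library scaled to a common total, mean ± SD) in 10 wild-type libraries, 61.5 ± 5.88 in 9 Isl1_het, 39.3 ± 13.8 in 9 Nipbl_het and 38.1 ± 7.41 in 9 double_het libraries. The library labelled Nipbl_het replicate 2 went against its label, with Nipbl at 72.4 CPM, and stood apart from all 36 other libraries for 57.7% of all genes. It is kept under its label, and results that rest on it are given with and without it. Isl1 averaged 7.37 ± 2.24, 6.28 ± 1.76, 13.0 ± 2.82 and 9.50 ± 3.51 CPM in the same order of groups, and its gene-level count does not show which allele a read came from. The number that follows IVF in each library's description, called the IVF set here, takes the values 1, 2, 5, 6 and 7, and the labels do not say what it marks. Set 1 holds wild-type and Isl1_het libraries alone and set 7 holds 1 double_het library. The 8 cardiomyocyte markers looked for (among them Tnnt2, Myh6 and Actc1) were above 0 in every library.

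None of the 10 transcription factors passed the test for a difference between genotypes in any of the 8 comparisons. The test was edgeR's quasi-likelihood test with the IVF set as a covariate, at a Benjamini-Hochberg adjusted p under 0.05 over all 15046 genes. The count was 0 of 10 in Isl1_het against wild-type, where 0% of all genes were called (0 genes by edgeR, with 886 or 5.89% at an unadjusted p under 0.05, and 11 by DESeq2). It was 0 of 10 in Nipbl_het against wild-type, where 1.71% of genes were called, 0 of 10 in double_het against wild-type with 2.6%, and 0 of 10 in double_het against Isl1_het with 0.957%. In double_het against Nipbl_het it was 0 of 10, where 0% of genes were called (0 by edgeR and by DESeq2, with 1355 or 9.01% at an unadjusted edgeR p under 0.05). For the effect of Nipbl loss averaged over both Isl1 genotypes it was 0 of 10, beside 4.02% of genes, and for the effect of Isl1 loss averaged over both Nipbl genotypes 0 of 10, beside 0.173%. For the interaction, which asks whether the double heterozygote departs from the sum of the single ones, it was 0 of 10, beside 0% of genes (0 by edgeR and by DESeq2, with 411 or 2.73% at an unadjusted edgeR p under 0.05). At an unadjusted p under 0.05, the members past the threshold were Nkx2-5 in Isl1_het and in double_het against wild-type, Nkx2-5, Mef2c and Gata6 in double_het against Nipbl_het, and Nkx2-5 and Mef2c for Isl1 loss averaged over Nipbl genotypes. The other 4 comparisons held none. Over all genes, the shares at an unadjusted p under 0.05 were 15.1% in Nipbl_het and 11.6% in double_het against wild-type, 7.49% in double_het against Isl1_het, 14.9% for Nipbl loss and 12.2% for Isl1 loss.

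**Figure D1:**
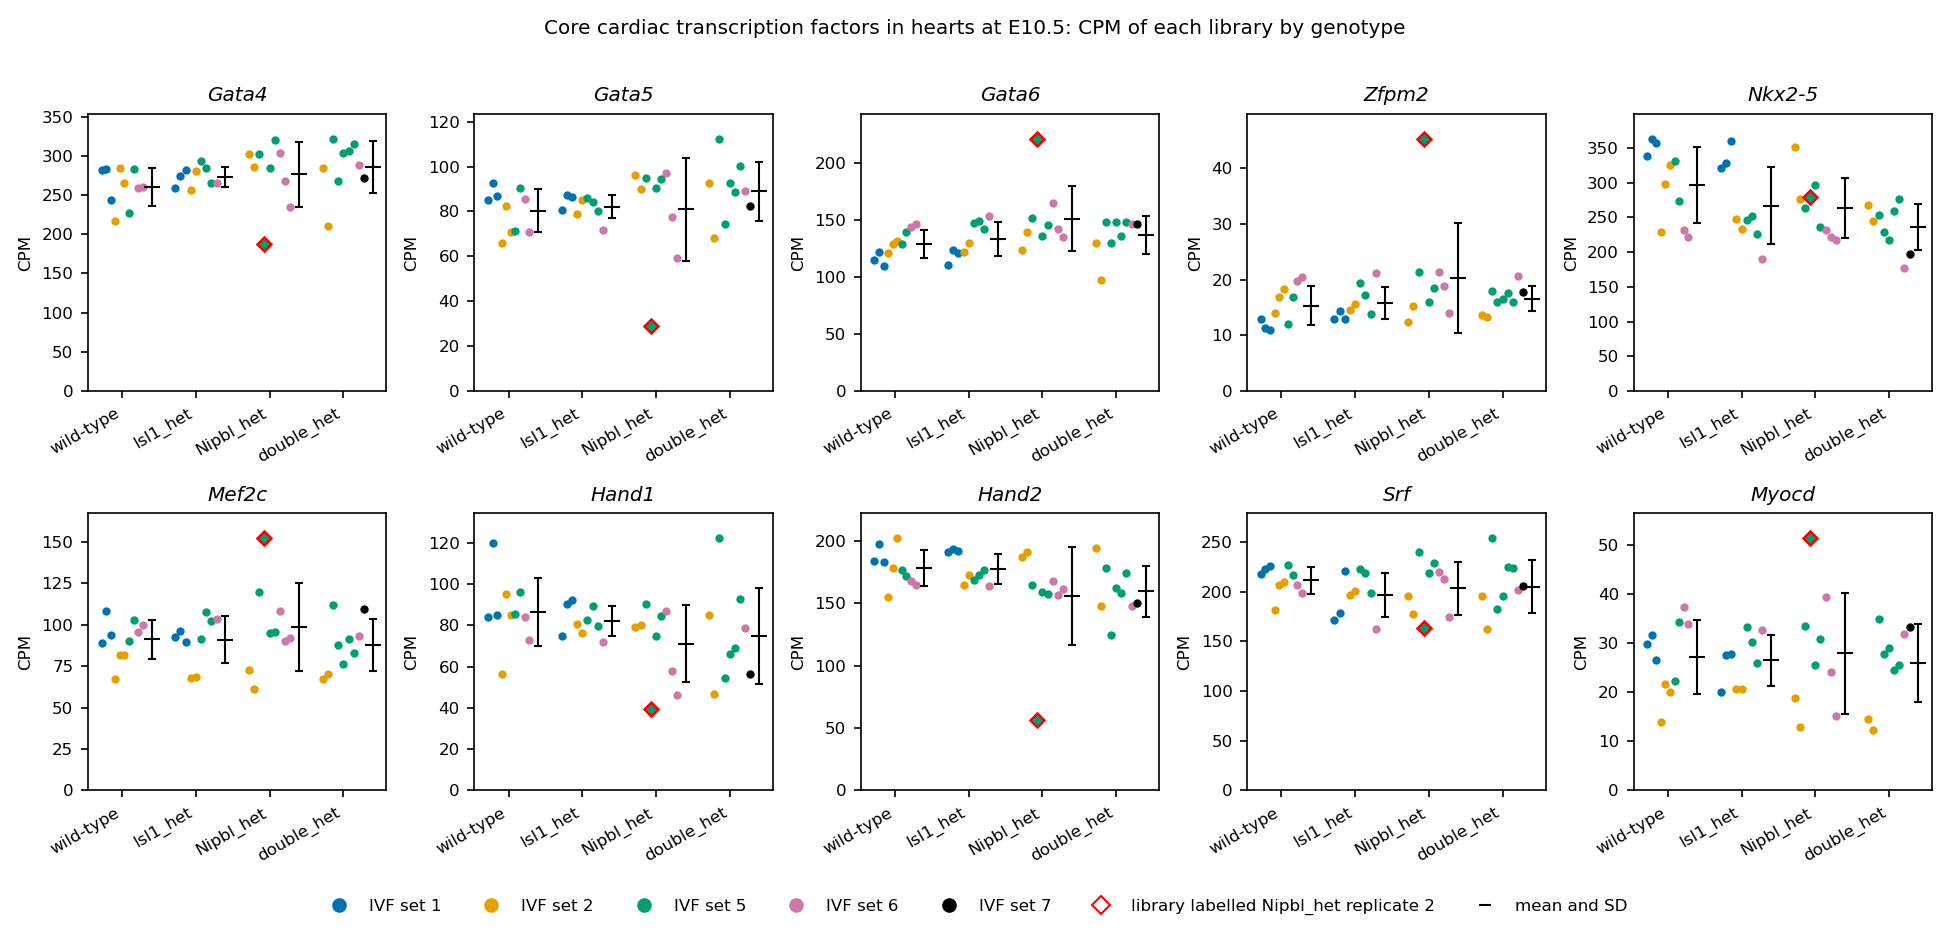
CPM (y axis) of each of the 10 transcription factors in every library, by genotype (x axis). Points are libraries coloured by IVF set, black bars are the mean and SD of 10, 9, 9 and 9 libraries, and the red-edged diamond is the library labelled Nipbl_het replicate 2. The genotypes overlap for every gene, and the diamond lies below all other libraries for Gata4, Gata5, Hand1 and Hand2 and above all others for Gata6, Zfpm2, Mef2c and Myocd.

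The intervals show what size of change these libraries leave possible. For Nipbl loss averaged over Isl1 genotypes, the 95% intervals of the 10 log2 changes lay between −0.41 (the lower end for Myocd) and 0.33 (the upper end for Gata5). For Isl1 loss averaged over Nipbl genotypes they lay between −0.34 (Zfpm2) and 0.28 (Gata5). For the interaction they were wider, from −0.76 (Zfpm2) to 0.61 (Hand1). Without the library labelled Nipbl_het replicate 2 the outermost limits were −0.43 and 0.29 for Nipbl loss, −0.32 and 0.15 for Isl1 loss, and −0.34 and 0.47 for the interaction. The median log2 change of the 10 members was −0.01 for Nipbl loss and −0.07 for Isl1 loss, beside 0.01 and −0.01 over all genes tested. Of the 10, 5 lay above 0 for Nipbl loss and 3 for Isl1 loss. In bulk RNA, fewer cells of a type and less RNA per cell cannot be told apart, which holds for every value below.

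**Figure D2:**
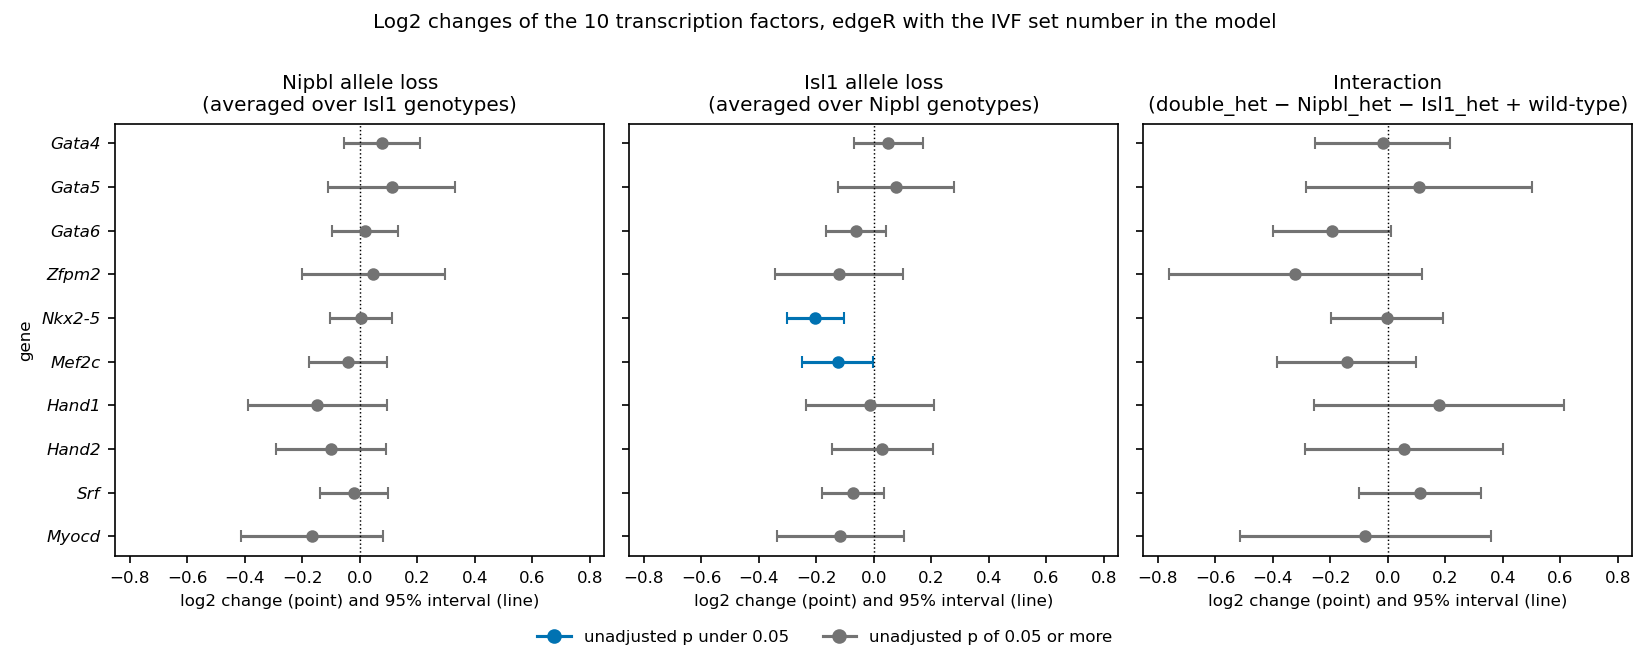
Log2 change (x axis) of each transcription factor (y axis) for Nipbl loss, for Isl1 loss and for their interaction. Points are estimates, lines are 95% intervals from 36 libraries (all but the only one of set 7), and blue marks an unadjusted p under 0.05. Nkx2-5 sits at −0.20 for Isl1 loss, and for Nipbl loss all 10 intervals include 0.

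Per kilobase of exon, the members span a wide range in wild-type hearts. Nkx2-5 was highest at 173 CPM per kb and Zfpm2 lowest at 1.61, a 107-fold difference between the means of 10 libraries. Between them came Hand2 (75.8 CPM per kb), Srf (73.1), Gata4 (66.7), Hand1 (43.3), Gata5 (24.5), Gata6 (19.8), Mef2c (5.80) and Myocd (4.22). Neighbours in this order were in the same order in 10 of 10 libraries, except that Hand2 was above Srf in 8 of 10, Srf above Gata4 in 9 of 10 and Gata5 above Gata6 in 9 of 10. Exon lengths were the union of GENCODE M21 exons (15715 bases for Mef2c and 1719 for Nkx2-5), whichever transcripts the heart uses.

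Gata4 is a zinc-finger activator needed for heart tube formation, at chr14:63198922-63271692 on the minus strand (GRCm38, as the coordinates below). Its CPM was 217 at the lowest, 263 at the median and 284 at the highest in wild-type libraries, 257, 275 and 293 in Isl1_het, 188, 286 and 320 in Nipbl_het, and 211, 289 and 321 in double_het. The 4 ranges overlapped, with 6 of 9 Nipbl_het and 6 of 9 double_het libraries above the highest wild-type library. The log2 change was 0.09 (SE 0.08, 95% interval −0.08 to 0.26, adjusted p 0.656) in Nipbl_het and 0.13 (SE 0.09, −0.05 to 0.31, adjusted p 0.643) in double_het against wild-type. A fit that dropped the library labelled Nipbl_het replicate 2 had a Nipbl_het change of 0.14 (SE 0.07, adjusted p 0.311), and without wild-type replicate 4 it was 0.05 (adjusted p 0.854). The Isl1_het change was 0.06 (SE 0.08, adjusted p 0.910), and 0.03 without wild-type replicate 4. Over fits that left out 1 library, the double_het change ran from 0.09 without that wild-type library to 0.19 without double_het replicate 8. Over all 49 alternative fits it ran from 0.02 to 0.19.

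Gata5, a GATA factor of endocardium and cardiac muscle at chr2:180325133-180334699, ran from 66.2 through a median of 83.7 to 92.9 CPM in wild-type libraries. It ran from 71.7 through 84.1 to 87.2 in Isl1_het, from 29.1 through 90.5 to 97.2 in Nipbl_het and from 68.1 through 89.3 to 112 in double_het. The lowest of all 37 was the library labelled Nipbl_het replicate 2, and otherwise the groups overlapped. For Nipbl loss averaged over Isl1 genotypes the log2 change was 0.11 (SE 0.11, adjusted p 0.720) with that library and 0.16 (SE 0.06, adjusted p 0.145) without it. An antisense gene, Gata5os, shares 258 of the exon bases of Gata5 (7.87%) and had 14 to 62 counts against 1066 to 4881 for Gata5. The strand setting of the counting is not given in the sources used here, so reads of such pairs are uncertain.

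Gata6, which acts in second heart field and outflow tract, had 110, 129 and 147 CPM as lowest, median and highest value in wild-type, 110, 130 and 154 in Isl1_het, 124, 142 and 221 in Nipbl_het and 97.2, 146 and 149 in double_het. Every double_het library was below the Nipbl_het mean of 151 CPM (9 of 9), a mean that includes the high value of the library labelled Nipbl_het replicate 2. The log2 change of double_het against Nipbl_het was −0.16 (SE 0.07, 95% interval −0.31 to −0.01, adjusted p 0.541), and −0.08 (SE 0.05, adjusted p 0.742) without that library. The interaction estimate was −0.19 (SE 0.10, adjusted p 0.999), and −0.11 (SE 0.07) without it. For Nipbl loss averaged over Isl1 genotypes, Gata6 had a log2 change of 0.02 (SE 0.06, adjusted p 0.926). In a fit without the set term that change was 0.13 (unadjusted p 0.0393, adjusted p 0.177), and in Nipbl_het against wild-type it was 0.23 (unadjusted p 0.0121, adjusted p 0.128), beside 0.12 with the set term. When the library labelled Nipbl_het replicate 2 was dropped from the fit with the set term, the Nipbl_het change was 0.04 (SE 0.05, adjusted p 0.811) and the averaged one −0.01 (SE 0.04, adjusted p 0.924). Gata6 was lowest in set 1, which holds no Nipbl heterozygote.

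Zfpm2, the GATA cofactor at chr15:40655035-41104592, was the least abundant member, with 10.9, 15.4 and 20.5 CPM in wild-type, 12.9, 14.5 and 21.1 in Isl1_het, 12.3, 18.4 and 45.2 in Nipbl_het and 13.3, 16.6 and 20.6 in double_het libraries. The value of 45.2 belongs to the library labelled Nipbl_het replicate 2, and the next highest of all libraries was 21.3. With that library the log2 change in Nipbl_het was 0.21 (SE 0.16, adjusted p 0.562), and without it −0.00 (SE 0.09, adjusted p 0.994). Over 49 alternative fits the Nipbl_het change of Zfpm2 ran from −0.18 to 0.40, with adjusted p of 0.162 or more. Its interaction estimate was −0.32 (SE 0.22) with that library and −0.08 (SE 0.13) without it.

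Nkx2-5, the homeodomain factor that marks cardiac progenitors and is kept on in heart muscle, was the member with the smallest p-values, in comparisons for Isl1 loss. It lies at chr17:26838664-26845009 on the minus strand. Its upstream sequence is shown because this member had the smallest p-values. The collection of RefSeq promoters used here (GRCm38.p6) held 5 of the 10 members, Gata5, Nkx2-5, Mef2c, Hand2 and Srf. The RefSeq start of Nkx2-5, at position 26841565, is that of the GENCODE transcript Nkx2-5-201, while the transcript Nkx2-5-202 starts 3444 bases further upstream, so the stretch printed here lies within the gene span and inside an intron of the longer transcript. In the 250 bases before that RefSeq start, the only match to the 6 motifs searched on both strands was 1 E-box (CANNTG, the motif that Hand factors bind), from 113 to 108 bases before the start. The other motifs searched were AGATAA and TGATAA for GATA factors, TNAAGTG for Nkx2-5, the CArG box for Srf and the MEF2 box for Mef2c. An E-box was present in 66.2% of all 32851 RefSeq promoters over the same length. The stretch chr17:26841609-26841815, read 5′ to 3′ on the minus strand and free of annotated exons, has the E-box in capitals.
Nkx2-5 upstream: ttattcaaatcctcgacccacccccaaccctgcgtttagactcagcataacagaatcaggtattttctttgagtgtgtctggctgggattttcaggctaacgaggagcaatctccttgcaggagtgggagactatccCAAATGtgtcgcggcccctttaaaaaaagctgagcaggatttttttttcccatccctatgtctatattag

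Nkx2-5 was lower on average in hearts that had lost an Isl1 allele, with overlap between the groups, and did not pass the threshold. The lowest, median and highest CPM were 222, 311 and 362 in 10 wild-type libraries, 190, 248 and 359 in 9 Isl1_het, 217, 264 and 351 in 9 Nipbl_het and 177, 245 and 276 in 9 double_het libraries. All 9 double_het libraries were below the wild-type mean of 297 ± 54.5 CPM, and 3 of 9 were below every wild-type library. Of the Isl1_het libraries, 6 of 9 were below that mean, and 1 was below every wild-type library. Of the Nipbl_het libraries, 8 of 9 were below that mean too and 1 was below every wild-type library, while the fitted Nipbl change, with the IVF set in the model, was near 0. The log2 change of Isl1_het against wild-type was −0.20 (SE 0.07, 95% interval −0.34 to −0.07, adjusted p 0.643), that of double_het against wild-type −0.20 (SE 0.07, −0.35 to −0.05, adjusted p 0.175) and that of double_het against Nipbl_het −0.20 (SE 0.07, −0.35 to −0.06, adjusted p 0.437). Averaged over Nipbl genotypes, Isl1 loss gave −0.20 (SE 0.05, 95% interval −0.30 to −0.10), a change of −13.2%, with an unadjusted p of 1.98e-04 and an adjusted p of 0.0701.

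For Nipbl loss the fitted Nkx2-5 change was near 0. The log2 change averaged over Isl1 genotypes was 0.00 (SE 0.05, 95% interval −0.10 to 0.11, adjusted p 0.986), and the interaction was −0.00 (SE 0.10) with an interval from −0.20 to 0.19. The unfitted means were 264 ± 42.9 CPM in 9 Nipbl_het and 297 ± 54.5 in 10 wild-type libraries, and the groups are spread unequally over the IVF sets. Nkx2-5 averaged 344 ± 17.7 CPM in the 6 libraries of set 1, 275 ± 42.3 in the 9 of set 2, 260 ± 30.4 in the 14 of set 5 and 213 ± 21.2 in the 7 of set 6, and set 1 holds no Nipbl heterozygote. In a fit without the set term, the Nipbl change of Nkx2-5 was −0.18 (adjusted p 0.179).

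Within single sets, Nkx2-5 was lower after Isl1 loss on both Nipbl backgrounds. The difference in mean log2 CPM between Isl1_het and wild-type was −0.07 in set 1, −0.22 in set 2, −0.32 in set 5 and −0.26 in set 6. Between double_het and Nipbl_het it was −0.28 in set 2, −0.12 in set 5 and −0.33 in set 6. Sets hold 1 to 5 libraries of a genotype, and in set 6 the Isl1_het and the double_het value are each 1 library. Ranges overlapped in sets 1 and 2 for Isl1_het and wild-type, and in set 5 the 3 Isl1_het libraries (226 to 251 CPM) lay below both wild-type libraries (274 and 331).

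**Figure D3:**
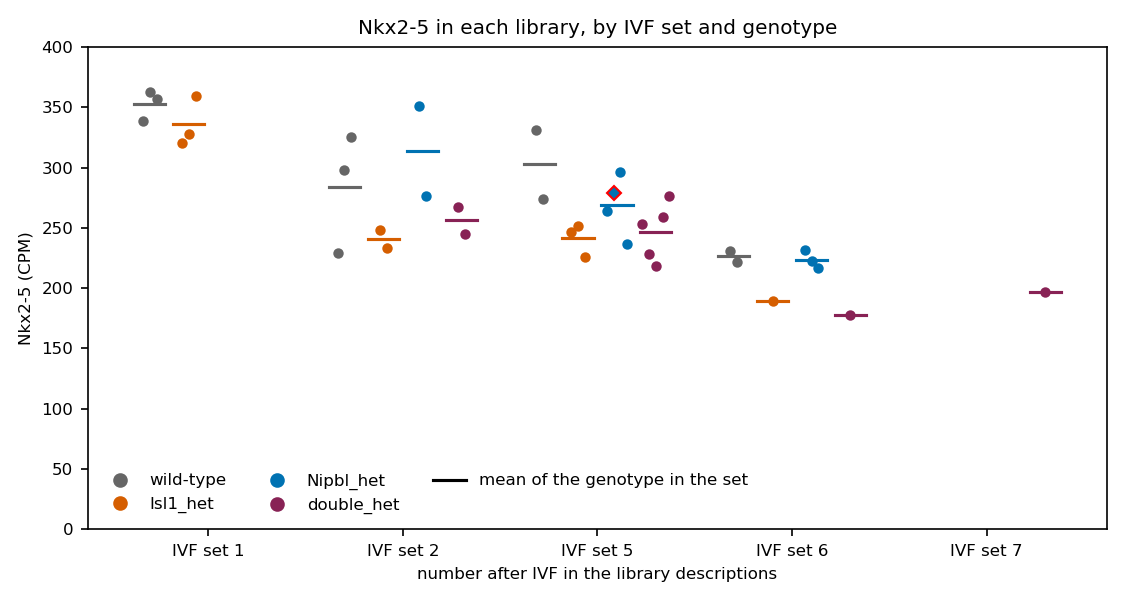
Nkx2-5 in CPM (y axis) in each library, by IVF set (x axis) and genotype (colour). Short lines are the mean of a genotype within a set, and the red-edged diamond is the library labelled Nipbl_het replicate 2. The level steps down from 344 CPM on average in set 1 to 213 in set 6, and within each set the Isl1_het mean lies below the wild-type mean.

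Whether Nkx2-5 passed the threshold for Isl1 loss turned on single libraries and on the tool. Averaged over Nipbl genotypes, the log2 change was −0.21 with an adjusted p of 0.00799 by DESeq2 with the same design. By edgeR it was −0.22 without wild-type replicate 7 (adjusted p 0.0248), −0.22 without Isl1_het replicate 3 (0.0443) and −0.22 without the library labelled Nipbl_het replicate 2 (0.0455). Over all genes, this comparison held 26 calls in the fit reported, 115 of 15046 by DESeq2 and 73 without wild-type replicate 7. Over the 37 fits that left out 1 library it held 4 to 73. Without the library labelled Nipbl_het replicate 2 it held 56 of 15072 (0.372%). In the fit without wild-type replicate 7, Nkx2-5 also passed between double_het and wild-type hearts (−0.24, adjusted p 0.0495). In all 49 alternatives together, the averaged change lay between −0.24 and −0.14, with adjusted p up to 0.709, and passed in 4. An unadjusted p under 0.05 was reached in 47 of the 49.

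The levels of several marker lists moved with Nkx2-5. Across 36 libraries with the set mean subtracted, Pearson's r between Nkx2-5 and the summed cardiomyocyte markers was 0.67, and with the summed erythroid markers −0.55. It was −0.47 with the epicardial sum, 0.40 with that of pharyngeal arch and second heart field (a list that holds Isl1 itself) and 0.38 with the neural sum (0.58 without the library labelled Nipbl_het replicate 2). These are descriptions over libraries that share sets and depth. The cardiomyocyte sum of 8 markers, none at 0, ran from 27084 to 40863 CPM in wild-type, 28585 to 39849 in Isl1_het, 26703 to 36204 in Nipbl_het and 27485 to 35652 in double_het libraries. The erythroid sum of 7 markers, of which Hba-a1 was at 0 in some library, ran from 1845 to 105519 CPM in wild-type, 816 to 47363 in Isl1_het, 484 to 23015 in Nipbl_het and 1293 to 53636 in double_het. With the cardiomyocyte sum as a covariate, the averaged Isl1 change of Nkx2-5 was −0.14 (SE 0.04, adjusted p 0.353), and with the erythroid sum it was −0.16 (adjusted p 0.387).

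The epicardial sum was higher and the second heart field sum lower after Isl1 loss within every set. The epicardial difference in mean log2 between Isl1_het and wild-type was 0.32, 0.13, 0.29 and 0.21 in sets 1, 2, 5 and 6, and between double_het and Nipbl_het 0.37, 0.34 and 0.09 in sets 2, 5 and 6. For the second heart field sum these were −0.17, −0.15, −0.34 and −0.45, and −0.37, −0.19 and −0.40. That list holds Isl1 itself, so its lower sum is not independent of the loss of an Isl1 allele. Isl1 alone averaged 7.37 CPM in wild-type, 6.28 in Isl1_het, 13.0 in Nipbl_het and 9.50 in double_het libraries. The epicardial sum of 7 markers, none at 0, ran from 261 to 463 CPM in wild-type, 307 to 553 in Isl1_het, 407 to 614 in Nipbl_het and 519 to 674 in double_het libraries. Upk3b averaged 145 CPM in wild-type and 189 in Isl1_het, while Wt1 averaged 47.6 and 48.5 and Upk1b 50.3 and 50.8. Tbx18 averaged 64.0 and 69.2 and Sema3d 15.5 and 19.8. In Nipbl_het and double_het these were 203 and 249 (Upk3b), 61.7 and 74.1 (Wt1), 64.7 and 67.6 (Upk1b), 76.7 and 87.4 (Tbx18) and 21.5 and 29.0 (Sema3d). The second heart field sum of 8 markers, of which Dlx5 was at 0 in some library, ran from 34.8 to 53.4 CPM in wild-type, 31.3 to 46.4 in Isl1_het, 41.4 to 62.7 in Nipbl_het and 29.3 to 50.6 in double_het. Of the 7 epicardial markers, 1 passed for Isl1 loss averaged over Nipbl genotypes, Upk3b at 0.40 (SE 0.08, adjusted p 0.0260), beside 0.173% of all genes. That call was lost in 20 of 49 alternatives, among them those without the set term, with either marker covariate, without each of sets 1, 2, 5 and 6 and 12 that left out 1 library, with changes from 0.33 to 0.45 and adjusted p up to 0.709. The neural sum of 6 markers, none at 0, was lower in Isl1_het than in wild-type libraries in all 4 sets, with differences of −0.18, −0.20, −0.47 and −0.23, and in double_het against Nipbl_het it was −0.25, 0.10 and −0.32 in sets 2, 5 and 6. It ran from 33.1 to 67.5 CPM in wild-type, 31.4 to 48.7 in Isl1_het, 21.7 to 57.2 in Nipbl_het and 32.8 to 59.6 in double_het. Its marker Tubb3 alone averaged 30.6 CPM in wild-type and 26.1 in Isl1_het libraries. The neural marker Pax6 passed for Isl1 loss averaged over Nipbl genotypes, at −0.95 (SE 0.17, edgeR adjusted p 0.0103), beside 0.173% of all genes. It averaged 0.533 CPM in wild-type, 0.318 in Isl1_het, 0.905 in Nipbl_het and 0.464 in double_het. The part of the epicardial, second heart field and neural levels in the Nkx2-5 difference was not tested.

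Mef2c, a MADS-box factor needed for second heart field and ventricular muscle, lies at chr13:83504034-83667080. Its CPM was 67.3, 92.1 and 108 (lowest, median, highest) in wild-type, 67.8, 92.5 and 107 in Isl1_het, 61.2, 94.9 and 152 in Nipbl_het and 67.1, 87.5 and 112 in double_het libraries, and the ranges overlapped. The top value of 152 was again the library labelled Nipbl_het replicate 2. For Isl1 loss averaged over Nipbl genotypes the log2 change was −0.13 (SE 0.06, 95% interval −0.25 to −0.00, adjusted p 0.399), and −0.09 (adjusted p 0.354) without that library. In double_het against Nipbl_het it was −0.20 (SE 0.09, adjusted p 0.525), and −0.11 (adjusted p 0.708) without that library, with within-set differences of 0.04 in set 2, −0.34 in set 5 and −0.05 in set 6. Set 5 holds the library labelled Nipbl_het replicate 2.

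Hand1 and Hand2 are basic helix-loop-helix factors, Hand1 of the left ventricle and outer curvature and Hand2 of the right ventricle and outflow tract. Hand1 (chr11:57828705-57832818) had 56.6, 85.01 and 120 CPM in wild-type, 71.8, 80.7 and 92.3 in Isl1_het, 39.3, 79.4 and 90.6 in Nipbl_het and 46.7, 69.2 and 122 in double_het libraries. Hand1 was below the wild-type mean in 7 of 9 Nipbl_het and 7 of 9 double_het libraries, yet the ranges overlapped. Its log2 change was −0.24 (SE 0.16, 95% interval −0.55 to 0.08, adjusted p 0.484) in Nipbl_het and −0.16 (SE 0.16, adjusted p 0.784) in double_het. Averaged over Isl1 genotypes, Nipbl loss gave −0.15 (SE 0.12, −0.39 to 0.09, adjusted p 0.644). Without the library labelled Nipbl_het replicate 2, the lowest for Hand1, the Nipbl_het change was −0.16 (SE 0.14, adjusted p 0.688) and the averaged one −0.11 (SE 0.10, adjusted p 0.649). The double_het change was −0.27 without double_het replicate 1 and −0.07 without double_het replicate 8, with adjusted p from 0.483 to 0.928 over all fits that left out 1 library.

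Hand2 (chr8:57320983-57324633) had 155, 177 and 202 CPM in wild-type, 164, 173 and 193 in Isl1_het, 56.7, 161 and 191 in Nipbl_het and 125, 158 and 194 in double_het libraries. The value of 56.7 was the library labelled Nipbl_het replicate 2, and the next lowest Nipbl_het library was at 157. In double_het, 4 of 9 libraries were below every wild-type library. The log2 change of Nipbl_het against wild-type was −0.13 (SE 0.12, adjusted p 0.650), and −0.02 (SE 0.06, adjusted p 0.935) without that library. Hand2 shares 461 exon bases (19.6% of its exons) with the antisense gene Hand2os1, which had 792 to 2142 counts against 2076 to 8938 for Hand2, so its count is uncertain to that extent. The 250 bases before the RefSeq start of Hand2 held TGATAA (215 to 210 bases before the start), AGATAA on the other strand (172 to 167) and a pair of E-boxes. TGATAA was present in 7.94% and AGATAA in 9.99% of all RefSeq promoters over that length. That stretch lies within annotated exons and is not printed.

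Srf, the MADS-box factor that binds CArG boxes in muscle genes, lies at chr17:46548329-46556175 on the minus strand. Its upstream sequence is shown because it holds the motif of its own protein. In the 250 bases before its start there were 2 CArG boxes, from 82 to 73 and from 62 to 53 bases before the start. The CArG box was searched as CC, 6 bases of A or T and GG, and was present in 1.47% of all RefSeq promoters over that length. The stretch chr17:46556176-46556412, read 5′ to 3′ on the minus strand and free of annotated exons, has both boxes in capitals.
Srf upstream: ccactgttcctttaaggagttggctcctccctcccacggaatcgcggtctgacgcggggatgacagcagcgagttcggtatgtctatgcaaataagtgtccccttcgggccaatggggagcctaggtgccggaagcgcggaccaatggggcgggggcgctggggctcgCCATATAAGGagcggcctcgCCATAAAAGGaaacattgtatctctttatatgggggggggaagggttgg

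The CPM of Srf was 182, 213 and 227 in wild-type, 162, 199 and 223 in Isl1_het, 163, 213 and 240 in Nipbl_het and 162, 202 and 254 in double_het libraries, so the ranges overlapped throughout. The log2 change for Nipbl loss averaged over Isl1 genotypes was −0.02 (SE 0.06, 95% interval −0.14 to 0.10, adjusted p 0.926). For Isl1 loss it was −0.07 (SE 0.05, −0.18 to 0.04, adjusted p 0.588), and −0.11 (SE 0.05, adjusted p 0.236) without the library labelled Nipbl_het replicate 2. Below every wild-type library were 3 of 9 Isl1_het, 3 of 9 Nipbl_het and 1 of 9 double_het libraries, and above every one were 0, 2 and 1.

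Myocd, the Srf coactivator at chr11:65176561-65269989, was more variable, with a biological coefficient of variation of 0.223 in the fit against 0.114 for Srf. It had 13.9, 28.2 and 37.4 CPM in wild-type, 20.04, 27.5 and 33.2 in Isl1_het, 12.8, 25.5 and 51.3 in Nipbl_het and 12.2, 27.7 and 34.9 in double_het libraries, with overlap of all groups. Its log2 change was −0.28 (SE 0.17, 95% interval −0.62 to 0.06, adjusted p 0.565) in double_het against wild-type and −0.16 (SE 0.12, −0.41 to 0.08, adjusted p 0.595) for Nipbl loss averaged over Isl1 genotypes. Without the library labelled Nipbl_het replicate 2, which held the top value of 51.3, the averaged change was −0.21 (SE 0.11, adjusted p 0.269). Over the 49 alternatives the averaged change ran from −0.37 to 0.01 and the double_het change from −0.41 to −0.07.

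The set term of the edgeR fit passed the threshold for 4 of 10 members, Nkx2-5, Mef2c, Myocd and Gata6, a share near the 38.2% of all genes that passed. Mef2c averaged 70.9 ± 6.83 CPM in the 9 libraries of set 2 and 94.9 ± 7.10, 100.4 ± 18.8 and 97.5 ± 6.65 in sets 1, 5 and 6. Myocd averaged 17.2 ± 3.80 CPM in set 2 and 27.2 ± 3.97, 30.6 ± 7.16 and 30.6 ± 8.38 in sets 1, 5 and 6. Gata6 averaged 117 ± 6.07 CPM in set 1, 125 ± 11.9 in set 2, 148 ± 22.2 in set 5 and 148 ± 9.43 in set 6. Of these 4 sets, Mef2c and Myocd were lowest in set 2, while Nkx2-5 was highest and Gata6 lowest in set 1. Gata4 (adjusted p 0.885) and Gata5 (adjusted p 0.878) gave no such call.

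The library labelled Nipbl_het replicate 2 lay outside all 36 other libraries for 8 of the 10 members. It was below all others for Gata4 (188 CPM), Gata5 (29.1), Hand1 (39.3) and Hand2 (56.7), and above all others for Gata6 (221), Mef2c (152), Myocd (51.3) and Zfpm2 (45.2). Nkx2-5 (279 CPM) and Srf (163) were inside the range of the others. Over all genes tested, 27.7% were below and 30% above all other libraries there. Its summed cushion mesenchyme markers were the highest of all libraries (1269 CPM) and its summed erythroid (484 CPM) and neural markers (21.7 CPM) the lowest, and the part of these in its values was not tested.

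Members varied together across libraries, beyond the sets. Over 36 libraries, with the set mean subtracted from log2 CPM, 16 of 45 pairs passed an adjusted permutation p under 0.05 (100000 permutations within sets), all 16 with a positive r. The smallest r among them was 0.56, a value that 16 of 45 member pairs (35.6%) and 8.17% of all 113183535 pairs of tested genes reached. Genes are not independent of each other, so that share is a description. Without the library labelled Nipbl_het replicate 2, 24 of 45 passed and 44 of 45 were positive, and the median r went from 0.13 to 0.43. The smallest r that passed there was 0.38, which 53.3% of member pairs and 14.2% of all pairs of tested genes reached, while 49.9% of all pairs were positive. Without that library all 10 members had a negative r with the erythroid sum, from −0.60 (Srf) to −0.32 (Zfpm2). With that library the r of the members ran from −0.59 (Gata6) to 0.12 (Hand2), and the part of blood content in the pairs was not tested. The pairs that passed both times numbered 12. They were Gata4 with Gata5, Hand1 and Srf, Gata5 with Hand1 and Srf, Gata6 with Zfpm2 and Myocd, Hand1 with Hand2 and Srf, Hand2 with Srf, and Myocd with Mef2c and Zfpm2.

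The tightest pair was Gata4 with Gata5. Pearson's r was 0.87 and Spearman's rho 0.87 over 36 libraries (adjusted permutation p 1.12e-04 and 2.25e-04, with 1e-05 the smallest unadjusted p that 100000 permutations can give). It was 0.83 without the 2 libraries farthest from the median of Gata4 and 0.84 without the library labelled Nipbl_het replicate 2. Within sets r was 0.38 (6 libraries of set 1), 0.89 (9 of set 2), 0.93 (14 of set 5) and 0.90 (7 of set 6). Gata6, the third GATA factor, paired with its cofactor Zfpm2 (r 0.81, rho 0.67, adjusted permutation p 1.12e-04) and had an r of −0.03 with Gata4. Without the library labelled Nipbl_het replicate 2 those values were 0.56 for Gata6 with Zfpm2 and 0.75 for Gata4 with Gata6, so the split between the GATA factors in the full set rests on that library. Hand1 and Hand2 had an r of 0.72 (rho 0.62, adjusted permutation p 1.12e-04), and 0.59 without the 2 libraries farthest from the median. Hand2 with Zfpm2 went from −0.71 (rho −0.15) to 0.06 without the library labelled Nipbl_het replicate 2.

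**Figure D4:**
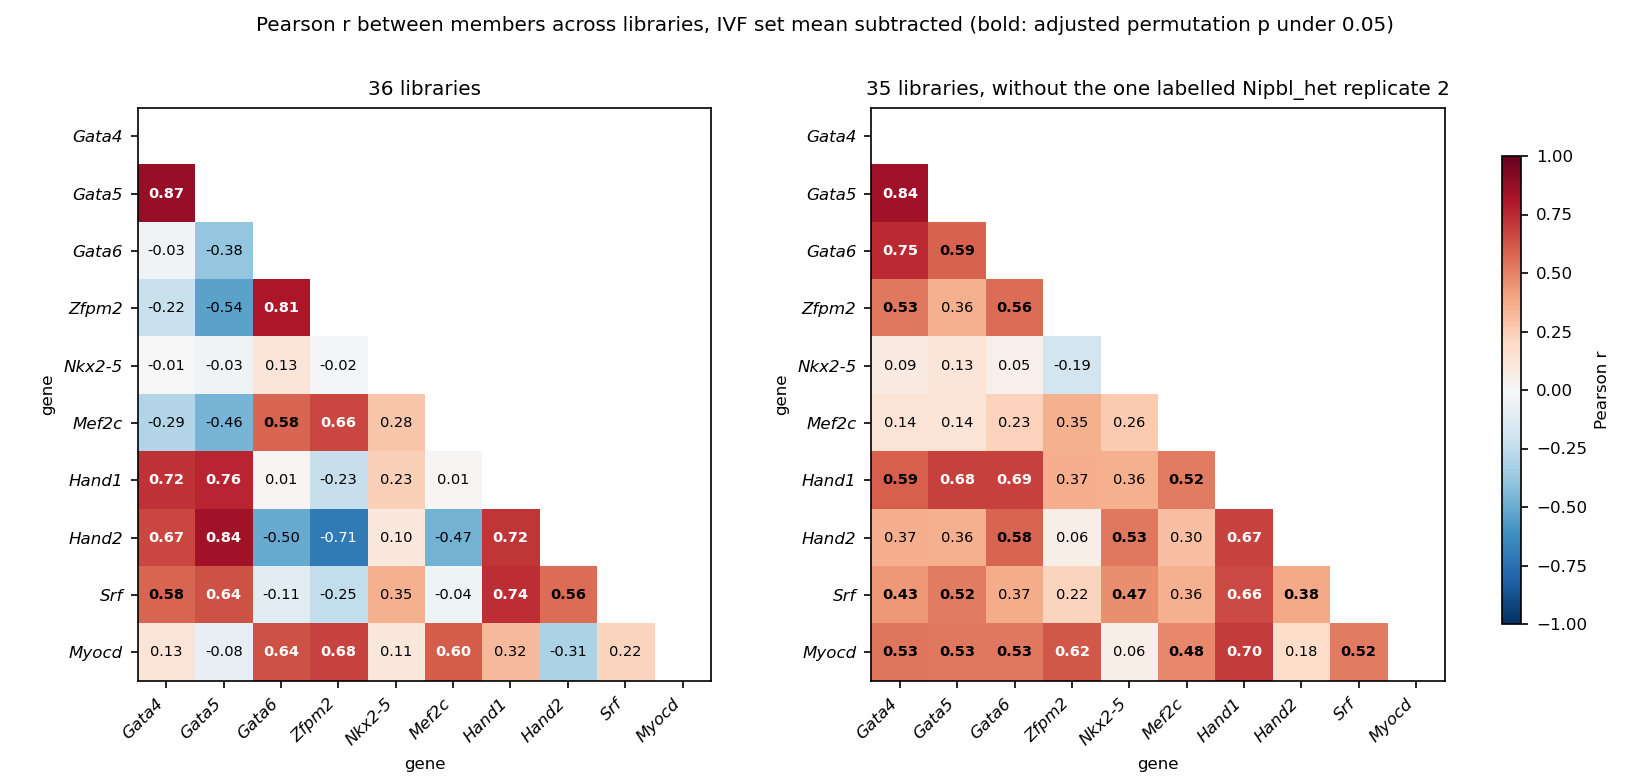
Pearson r between members across libraries after the IVF set mean was subtracted, in 36 libraries (left) and in 35 without the library labelled Nipbl_het replicate 2 (right). Rows and columns are genes, red is positive and blue negative, and bold marks an adjusted permutation p under 0.05. The blue block between Gata6, Zfpm2, Mef2c and Myocd on one side and Gata5 and Hand2 on the other is absent on the right, while Gata4 with Gata5 stays at 0.84.

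Nkx2-5 was the one member with no pair past the threshold by Pearson's r over 36 libraries. Its r ran up to 0.35 with Srf (adjusted permutation p 0.0840), where rho was 0.40 (adjusted permutation p 0.0472). Without the library labelled Nipbl_het replicate 2 it passed with Hand2 (r 0.53, adjusted permutation p 0.0122) and Srf (r 0.47, adjusted permutation p 0.00844). Of the marker sums, the one closest to Gata4 was that of endocardium and endothelium, with an r of 0.72 both with and without that library, and without it the cushion mesenchyme sum came to 0.75. For Nkx2-5 the endocardial sum had an r of −0.25. The medians of that sum were 631 CPM in wild-type, 726 in Isl1_het, 658 in Nipbl_het and 771 in double_het libraries, and its part in the Gata4 values was not tested.

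Among all other tested genes, the ones most like each member across the 36 libraries were named by Pearson's r on set-centred log2 CPM. Nkx2-5 was most like Crip2 (r 0.87, and 0.88 without the library labelled Nipbl_het replicate 2), Rbpms2 (0.74 and 0.86) and Ccdc136 (0.74 and 0.78). Gata4 was most like Ddr1 (0.94 and 0.93), Erbb3 (0.92 and 0.88) and Pofut2 (0.91 and 0.85). Myocd was most like Sipa1l2 (0.91 and 0.91), Ptgfrn (0.91 and 0.89) and Cobll1 (0.91 and 0.89), and Hand1 like Stard8 (0.87 and 0.81), Rnps1 (0.85 and 0.79) and Col2a1 (0.85 and 0.79). For Gata5 these were Tril, Klc2 and Cand2 (each 0.95, and 0.82 to 0.85 without that library). For Hand2 they were St6galnac4 (0.96), Spsb4 (0.95) and Sdc1 (0.95), which came to 0.72, 0.66 and 0.68 without it. Gata6 was most like Nfe2l1 (0.89 and 0.77) and Rap1gap2 (0.88 and 0.78), and Zfpm2 like Sel1l (0.92 and 0.79), Erbin (0.92 and 0.78) and Gsk3b (0.91 and 0.77). Mef2c was most like Homer1 (0.88 and 0.79), Sypl (0.87 and 0.77) and Ptbp2 (0.85 and 0.74), and Srf like Neurl1b (0.78 and 0.74), Spata13 (0.77 and 0.73) and Tspan2 (0.77 and 0.72). These are the highest values over all genes tested and carry no test.

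Around the 10 factors, a list of paralogues and partners held 24 genes, of which 22 were tested (Nkx2-3 and Mef2b were too low). For Nipbl loss averaged over Isl1 genotypes, 2 of 22 were lower and 0 higher, beside 1.36% lower and 2.67% higher among all genes. Hopx, the homeodomain-only cofactor that restrains Srf, averaged 171 ± 25.5 CPM in wild-type, 152 ± 12.5 in Isl1_het, 127 ± 22.8 in Nipbl_het and 130 ± 13.2 in double_het libraries. Its log2 change for Nipbl loss was −0.27 (SE 0.07, adjusted p 0.0207), with 9 of 9 Nipbl_het and 9 of 9 double_het libraries below the wild-type mean. Against wild-type the Hopx change was −0.37 (adjusted p 0.0304) in Nipbl_het and −0.35 (adjusted p 0.0458) in double_het. The Nipbl_het call was lost in 13 of 49 alternatives, among them those without sets 1, 2 and 5 and 9 that left out 1 library, with changes from −0.52 to −0.22 and adjusted p up to 0.333. The double_het call was lost in 35 of 49, with changes from −0.40 to −0.24. Neither passed with the cardiomyocyte marker level as a covariate. For Nipbl loss Hopx did not pass without set 2 (−0.30, adjusted p 0.159), without set 5 (−0.13, adjusted p 0.472), or without wild-type replicate 4, Isl1_het replicate 6 or Isl1_het replicate 7 (adjusted p 0.0518, 0.0542 and 0.0626). Irx4, a ventricular homeodomain factor, averaged 95.8 ± 19.0 CPM in wild-type and 66.3 ± 14.3 in Nipbl_het, with a log2 change of −0.36 (SE 0.09, adjusted p 0.0174) for Nipbl loss. That call was lost without set 2 (−0.38, adjusted p 0.154), without set 5 (−0.32, adjusted p 0.0988) and without set 6 (−0.40, adjusted p 0.0646). Against wild-type Irx4 changed by −0.47 (adjusted p 0.0326) in Nipbl_het, lost in 11 of 49 alternatives, and by −0.50 (adjusted p 0.0241) in double_het, lost in 8 of 49. Both calls were lost without each of sets 1, 2, 5 and 6 and with the cardiomyocyte covariate, with changes from −0.53 to −0.38 and from −0.56 to −0.42 over the alternatives. No partner passed in the comparisons for Isl1 loss or the interaction, where few or no genes were called at all. The shares of all genes were 0% in Isl1_het against wild-type, 0% in double_het against Nipbl_het, 0.173% for averaged Isl1 loss and 0% for the interaction. The median of the 22 was −0.01 for Nipbl loss and −0.01 for Isl1 loss, beside 0.01 and −0.01 over all genes.

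The 25 heart muscle genes listed as targets of these factors were all tested. For Nipbl loss averaged over Isl1 genotypes 1 of 25 was lower and 0 were higher, beside 1.36% lower and 2.67% higher among all genes. That gene was Gja1, the gap junction protein connexin 43, at 114 ± 27.5 CPM in wild-type, 120 ± 20.3 in Isl1_het, 97.1 ± 16.8 in Nipbl_het and 107 ± 15.4 in double_het libraries. Its log2 change was −0.39 (SE 0.07, adjusted p 8.98e-04), and −0.42 (adjusted p 0.0134) in Nipbl_het against wild-type, where 9 of 9 libraries were below the wild-type mean. Neither passed without the set term, with the title number in its place or without set 2, and the one in Nipbl_het did not pass without set 5. Over the 49 alternatives the changes ran from −0.46 to −0.16 for Nipbl loss and from −0.49 to −0.18 in Nipbl_het. The median of the 25 was −0.12 in Isl1_het, −0.18 in Nipbl_het and −0.10 in double_het against wild-type, with 5, 6 and 7 of 25 above 0, beside medians of −0.00, 0.01 and −0.00 over all genes. Those 3 medians share the wild-type libraries. For the averaged effects the median of the 25 was −0.06 for Nipbl loss and −0.03 for Isl1 loss, beside 0.01 and −0.01 over all genes. It was 0.03 in double_het against Isl1_het (14 of 25 above 0) and 0.00 in double_het against Nipbl_het (13 of 25). All genes had medians of 0.00 and −0.01 there. For the interaction it was 0.14, with 20 of 25 above 0, beside −0.00 over all genes. The list holds all 8 cardiomyocyte markers, whose sum differed from wild-type within sets by −0.20 to −0.09 (mean log2) in Isl1_het, −0.17 to −0.05 in Nipbl_het and −0.19 to 0.00 in double_het, while the epicardial sum was higher in each set. Their part in the medians was not tested. For Isl1 loss 0 of 25 passed, near the 0.173% of all genes called there. Nppa, the natriuretic peptide gene that several of these factors activate, was at 0.24 (SE 0.11, adjusted p 0.368).

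Of 15 smooth muscle genes that Srf and Myocd turn on, all tested, 1 was higher and 0 lower for Nipbl loss averaged over Isl1 genotypes, beside 2.67% higher and 1.36% lower among all genes. Myh11, the smooth muscle myosin heavy chain, averaged 3.36 ± 2.06 CPM in wild-type, 5.38 ± 2.94 in Isl1_het, 9.26 ± 2.74 in Nipbl_het and 11.3 ± 2.52 in double_het libraries. Its log2 change was 1.19 (SE 0.23, adjusted p 0.00131) for Nipbl loss, 1.36 (SE 0.30, adjusted p 0.0126) in Nipbl_het and 1.68 (SE 0.32, adjusted p 0.00168) in double_het against wild-type, where 9 of 9 libraries of either group were above the wild-type mean. Without set 5 none of these Myh11 changes passed, and without set 2 the one in Nipbl_het did not. The other 14 included Tagln (0.16, SE 0.08, adjusted p 0.385) and Acta2 (−0.11, SE 0.07, adjusted p 0.490), and the median of the 15 was −0.01. The summed epicardial markers, none of 7 at 0, were higher too, 3 of 7 of them past the threshold for Nipbl loss (beside 4.02% of all genes). Their sum had medians of 411 CPM in wild-type, 496 in Isl1_het, 505 in Nipbl_het and 634 in double_het libraries. The part of these markers in the Myh11 result was not tested.

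**Figure D5:**
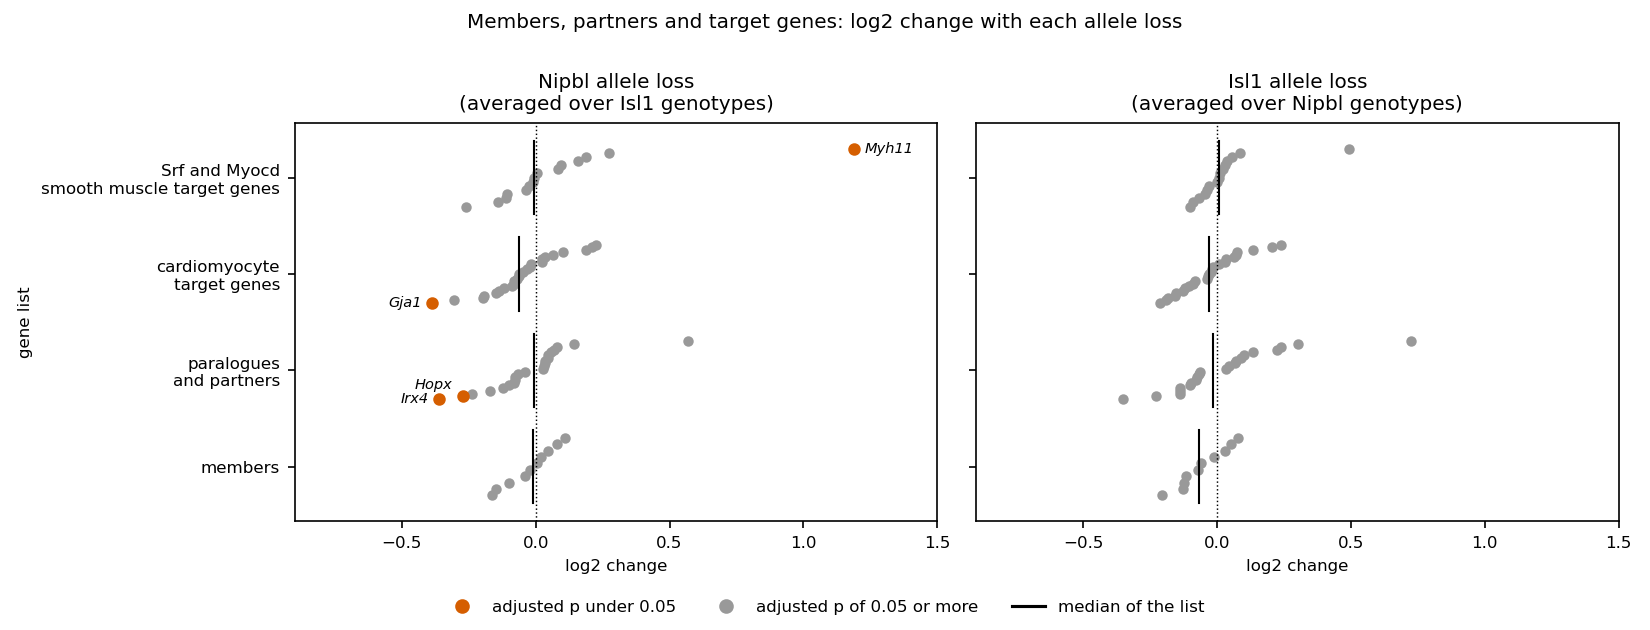
Log2 change (x axis) for Nipbl loss (left) and Isl1 loss (right) of the 10 members and of 3 lists of related genes (y axis). Each point is a gene, orange marks an adjusted p under 0.05 (edgeR), and black lines are list medians. For Nipbl loss Irx4, Hopx and Gja1 lie to the left at −0.36, −0.27 and −0.39 and Myh11 to the right at 1.19, and none of the members is orange.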

How the data were processed

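Bulk RNA libraries of mouse hearts were analysed from the raw read counts per gene symbol that the authors deposited, 1 column per library, whole numbers and not normalized. STAR and featureCounts are named in the submitters' processing notes, with GRCm38 and mm10; versions, annotation and strand setting are not given in the sources used here. Libraries were grouped by title, and 0 other columns were present. Genes were filtered with filterByExpr (minimum count 10, minimum total 15), scaled by TMM and fitted in 1 model with genotype and IVF set by quasi-likelihood in edgeR 4.0.16 (R 4.3.3 and limma 3.58.1). Tests were two-sided, adjusted by Benjamini-Hochberg over all genes tested, at 0.05. The only library of set 7 (double_het) takes no part in the comparisons, because a set of 1 has its own term, which leaves 8 double_het libraries. Alternatives were other designs, DESeq2 1.42.0, size factors, filters, marker covariates and leaving out each set and library. Correlations used log2 CPM with a prior count of 2 (scipy 1.17.1). The fits were tested on simulated data.

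The members, lists and tests were chosen with earlier results of these data known. Named were the members, Nipbl and Isl1, list genes past the threshold (up to 4 per direction and comparison) and the 3 genes most like each member, of which 1 is not reported here. Tagln, Acta2 and Nppa were named after their values were seen. No pair of libraries in a group agreed within sampling noise (smallest chi-square per degree of freedom 7.46 over 153 pairs). Exons and coordinates are from GENCODE M21 and promoters from RefSeq GRCm38.p6.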

Additional observations from a re-analysis of the deposited data

Results flagged for a closer look

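Single libraries stood away from the rest of their genotype, by Dixon's test at its 95% critical value, in 5 of 40 groups of a gene and a genotype, where chance gives about 2. The test took CPM with all IVF sets of a genotype together, and members vary together, so the 40 groups are not independent. The library labelled Nipbl_het replicate 2 gave 3 of the 5. It had the highest Gata6 of its group at 221 CPM (next 165), the lowest Hand2 at 56.7 CPM (next 157) and the highest Zfpm2 at 45.2 CPM (next 21.3). The library double_het replicate 8 gave the other 2, as the lowest of its group for Gata4 at 211 CPM (next 268) and for Gata6 at 97.2 CPM (next 130). It was also the lowest double_het library for Gata5, Hand1, Myocd, Srf and Zfpm2. No member passed the interaction test, with an adjusted p for the interaction of at least 0.999 in all 10.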

How the results depend on the processing

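Under 49 alternatives, the count of members past the threshold stayed at 0 of 10 in all 8 comparisons, apart from Nkx2-5. For Isl1 loss averaged over Nipbl genotypes the count was 1 with DESeq2, which called 115 of all 15046 genes there. Over the 37 fits that left out a library the count was from 0 to 1, beside 4 to 73 of all genes. For double_het against wild-type the count was also from 0 to 1 over those fits, beside 244 to 839 of all genes. Of 3920 member values, 3 changed sign with an unadjusted p under 0.05 in either fit. For Nipbl loss these were Nkx2-5 at −0.18 (no set term) and −0.15 (replicate block, the title number in place of the set) and Zfpm2 at −0.18 without set 5. Another 217 changed sign with no such p in either fit, at log2 changes from −0.18 to 0.15. Title numbers did not pair the libraries (mean correlation 0.0371 over 54 same-numbered pairs, and 3 of 36 libraries closest to their own number), and with the replicate block the members past the threshold stayed at 0.

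Of the pair correlations, 16 passed, and 24 without the library labelled Nipbl_het replicate 2, 24 with no set mean subtracted (6 of them negative) and 17 with set and genotype means subtracted (1 negative). Of the 18 pairs that had been negative, 5 were positive and passed without that library, at 0.75 (Gata4 with Gata6), 0.53 (Gata4 with Zfpm2), 0.59 (Gata5 with Gata6), 0.53 (Gata5 with Myocd) and 0.58 (Gata6 with Hand2), and the other 13 ran from −0.19 to 0.37 and did not pass. With no set mean subtracted, Gata6 with Nkx2-5 was −0.41. Genes called over the whole table ran from 31 to 467 for Nipbl_het (258 in the fit reported), 67 to 839 for double_het (391), 12 to 361 for double_het against Isl1_het (144), 152 to 1045 for Nipbl loss (605), 0 to 115 for Isl1 loss (26) and 0 to 11 for Isl1_het (0), so the background shares move with the fit. The cause was not tested. Hopx, Irx4, Gja1 and Myh11 kept their direction in every alternative for the comparisons in which they passed.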
